A study of Arabidopsis thaliana with 18 samples.

Results

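THI2.2 (AT5G36910, chromosome 5, probe set 249645_at) and AT1G66100 (chromosome 1, probe set 256527_at) are Arabidopsis genes of the thionin family. They were followed over 18 arrays, and they make up 2 of the 22746 probe sets of the array that are no controls. Both were selected on their measured signal, because they stood out in an F-test between the replicate numbers that the sample titles carry. Their levels by replicate number are therefore a description and carry no test here. Tests were made only of the treatment and of the serial ranges of the titles, neither of which served to choose them.

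Thionins are small, basic, cysteine-rich peptides that damage microbial membranes, and plant pathologists count them as family 13 of the pathogenesis-related proteins. Each is made as a precursor with a signal peptide in front and an acidic part behind, which are removed. In Arabidopsis the best studied member is THI2.1, which responds to jasmonate, whereas THI2.2 is known as a sister gene with basal expression in seedlings. AT1G66100 is annotated as a thionin from its sequence.

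The plants were of Cvi-1, a natural accession from the Cape Verde Islands. Of the samples, 9 had received the defence hormone salicylic acid (SA) at 0.3 mM in 0.02% silwet, an organosilicone surfactant, and 9 had received 0.02% silwet alone. Every group thus shares the accession and the surfactant, and no sample without silwet was analysed here. The titles number the replicates 1, 2 and 3, with 3 arrays for each number in each treatment, and they also carry a serial number, by which single arrays are named below. Serials 19 to 21 (silwet) and 28 to 30 (SA) are called serial block 1, 22 to 24 and 31 to 33 block 2, and 25 to 27 and 34 to 36 block 3, so that each block holds 1 array of each number and treatment. A further identifier in the titles runs in a separate range for each replicate number. The sources used here do not give what a number, a block or this identifier stands for, the tissue or the time of harvest. No label says that the arrays come from separate plants, so the spread that p-values measure is that among these samples and may be technical.

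Signal is the authors' MAS5 intensity, already scaled per array, with a median of 31.7 to 38.7 over the array. Precision is limited by the number of arrays. Tests were limited to the 13648 probe sets whose log2 signal averaged 4.31 or more, a signal of 19.9, and one was called at a limma adjusted p under 0.05. The tested genes of leaf photosynthesis had a clear signal in every array: 2430 to 3576 for LHCB4.1 and 399 to 978 for LHCB4.2, which are light-harvesting proteins, and 1760 to 3247 for RCA, the activase of Rubisco. The root hair expansins EXPA7 and EXPA18 stayed at or below 16.1 and 16.3. A marker of SA was high in 3 arrays, all of block 1, and 1 of them was labelled silwet. UGT76B1, a glycosyltransferase that acts on SA, had signals of 1238 and 1552 in the SA arrays 28 and 30, and 41.2 in array 29, the third SA array of block 1. In the array labelled silwet with serial 20, of the same block and of number 2 like array 29, it had 1540. In the 6 SA arrays of blocks 2 and 3 it was low as well, at 10.3 to 54.0. Thus 7 of the 9 SA arrays lay below 77.6, the highest value of the silwet arrays other than array 20. It lay between 10.3 and 77.6 in the 15 arrays other than 20, 28 and 30. Since arrays 20 and 29 are the ones of block 1 where label and marker run opposite ways, the SA results below are given with them and without them, an alternative added after seeing the data, and both keep the treatment in their label.

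THI2.2 was a gene of high signal and its level followed the replicate number. Its mean signal was 500.6, and 93.7% of probe sets had a mean log2 signal at or below its 8.80. All 18 values lay far above the signal needed for testing. In arrays of number 2 the signal was 703, 720.0 and 436.8 with SA, in blocks 3, 2 and 1, and 617, 465 and 451 with silwet. In arrays of number 3 it was 677, 679 and 643 with SA and 781, 778 and 613 with silwet. In arrays of number 1 it was 292, 135 and 302 with SA and 193, 245 and 280.4 with silwet. The 6 arrays of number 1 were thus the 6 lowest of the 18, and the highest of them lay below the lowest of number 2. Numbers 2 and 3 overlapped, with medians of 541 and 678, against 263 in number 1.

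AT1G66100 split the arrays in the same way, over a wider range. Its mean signal was 310.2, and 87.8% of probe sets had a mean log2 signal at or below its 7.97. The highest value of AT1G66100 was 10.6 times its lowest, against 5.80 times for THI2.2. In arrays of number 2 the signal was 337, 440.1 and 633 with SA, in blocks 3, 2 and 1, and 332, 474 and 511 with silwet. In arrays of number 3 it was 343.3, 269 and 519.6 with SA and 465, 292 and 342 with silwet. In arrays of number 1 it was 117, 59.6 and 118 with SA and 86.0, 72.8 and 169 with silwet. Again the 6 arrays of number 1 were the lowest, with no overlap. Both genes were chosen by a test between numbers, so such a split was likely beforehand. How many other probe sets split in this way was not counted. Medians were 457 in number 2, 342.9 in number 3 and 102 in number 1.

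**Figure D1:**
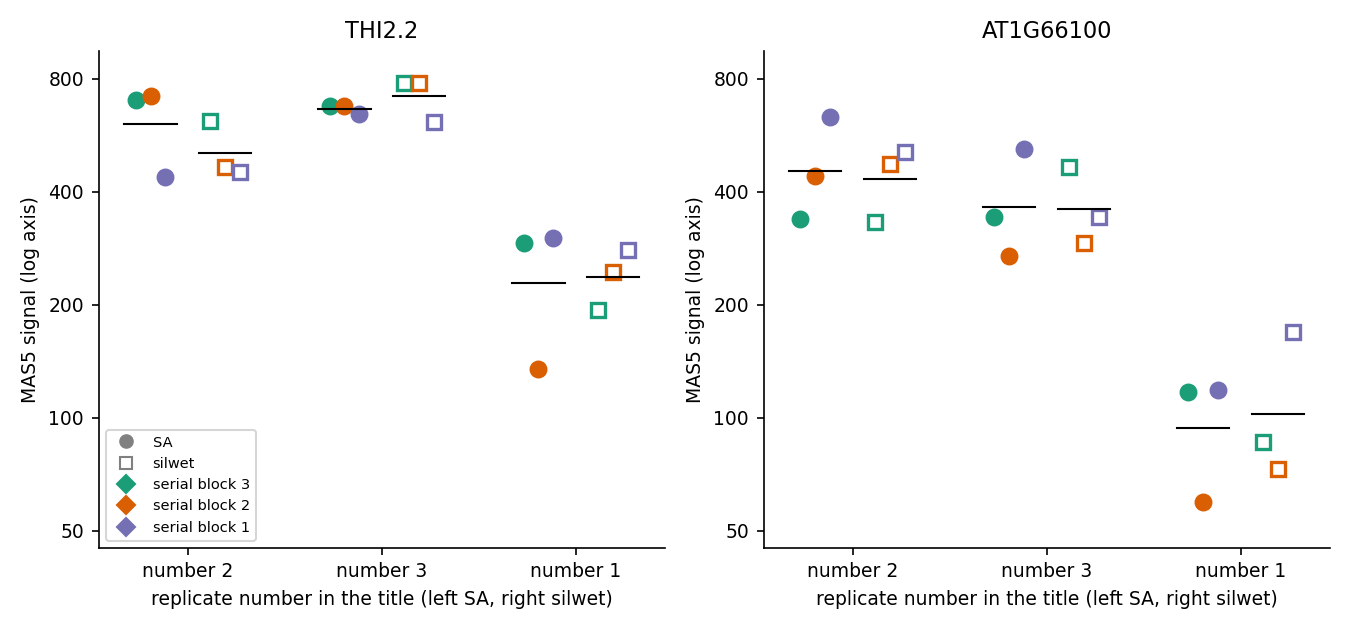
MAS5 signal (log axis) of THI2.2 and AT1G66100 in each of the 18 arrays, by replicate number, with SA as filled circles on the left and silwet as open squares on the right of each number; colours give the serial block and lines the mean of log2 signal over 3 arrays. All arrays of number 1 lie below all arrays of numbers 2 and 3 for both genes, at no more than 302 for THI2.2 and 169 for AT1G66100.

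On the log2 scale THI2.2 averaged 9.11 ± 0.33 in number 2, 9.44 ± 0.14 in number 3 and 7.86 ± 0.45 in number 1 (SD, n = 6 each). The fitted differences in log2 signal were 1.25 (SE 0.19) for number 2 minus 1 and 1.58 (SE 0.19) for number 3 minus 1, or 2.38-fold and 2.98-fold. AT1G66100 averaged 8.79 ± 0.36, 8.50 ± 0.37 and 6.61 ± 0.55 in numbers 2, 3 and 1 (SD, n = 6 each), with differences of 2.18 (SE 0.24; 4.53-fold) and 1.89 (SE 0.24; 3.70-fold). THI2.2 was thus highest in number 3 and AT1G66100 in number 2. The difference of number 3 minus 2 was 0.32 (SE 0.19) for THI2.2 and -0.29 (SE 0.24) for AT1G66100.

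Among the 13648 probe sets tested, AT1G66100 had rank 2 for its difference of number 2 minus 1 and THI2.2 had rank 47. For number 3 minus 1 the ranks were 7 and 25. Over the whole array the F-test between numbers called 400 probe sets, 2.93% of those tested. Number 2 minus 1 gave 0.476% called higher, number 3 minus 1 gave 2.18% higher and 2.80% lower, and number 3 minus 2 gave 0% (616 at an unadjusted p under 0.05). Since the members were chosen from this contrast, nothing is read from their place in it. Of each gene's variation in log2 signal, the replicate number took up 83.2% for THI2.2 and 85.5% for AT1G66100, the serial block 1.29% and 7.12%, and the treatment 0.0415% and 0.00234%. The share of the number restates the contrast that chose the members, so it is only a description. It was computed for the members alone.

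Measures of the arrays also differed between the numbers, and their part in the levels was not tested. Signals under 16 made up 35.9% ± 1.09 in number 2, 34.9% ± 1.35 in number 3 and 37.6% ± 1.07 in number 1 of all probe sets (SD, n = 6 each). The ratio of the 3' to the 5' probe sets of ubiquitin was 2.95 ± 0.431, 2.80 ± 0.190 and 3.37 ± 0.384 in numbers 2, 3 and 1. That of GAPDH was 1.15 ± 0.135, 1.04 ± 0.110 and 1.07 ± 0.0743, so number 1 was not highest in both. The spiked control bioB had a mean signal of 73.1 ± 10.98 in number 2, 53.3 ± 10.2 in number 3 and 52.3 ± 7.02 in number 1. The tissue is not given. If the RNA came from several cell types, fewer cells of a type and less RNA per cell cannot be told apart.

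The members followed each other across replicate numbers more than within them. Over the 18 arrays, which both probe sets share, the log2 signals had a Pearson r of 0.84 and a Spearman rho of 0.55. The arrays fall into 2 clusters along the replicate number, so that r mostly restates the split. After each number's mean was taken out, r was 0.23 and rho 0.15 (n = 18), and r was 0.07 without arrays 29 and 31, the 2 farthest from the median (n = 16). Within number 1 the 2 genes ran together (r = 0.80, rho = 0.77), within number 3 they did not track (r = -0.06, rho = -0.14), and within number 2 they ran opposite ways (r = -0.78, rho = -0.77; n = 6 each). In number 2, the array with the least THI2.2, at 436.8, held the most AT1G66100, at 633. These values describe few arrays and carry no p.

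**Figure D2:**
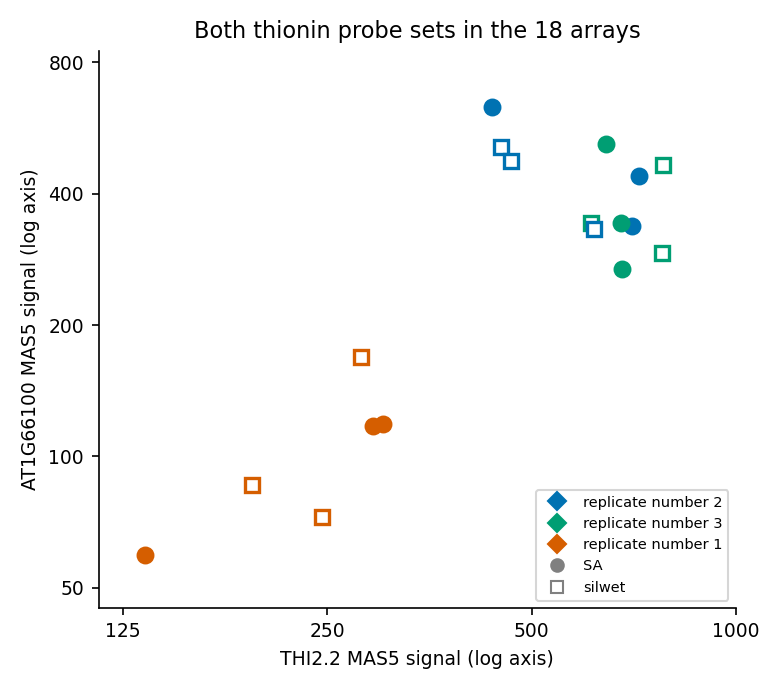
Signal of AT1G66100 against signal of THI2.2 in the 18 arrays (both axes log), coloured by replicate number, with circles for SA and squares for silwet. The arrays of number 1 form a group at the lower left, while arrays of number 2 slope downwards (r = -0.78, n = 6).

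Other genes shared the pattern over arrays as closely. By Pearson r of log2 signal over 18 arrays, the named genes most like THI2.2 were AT4G12500, a gene of the EARLI1 family of lipid-transfer-like proteins (r = 0.88), AT1G33080, a MATE efflux carrier (0.88), HRGP1, a hydroxyproline-rich glycoprotein of the cell wall (0.87), AT2G24960 (0.87) and AILP1 (0.86). The HRGP1 probe set is of a type that may also bind other transcripts. Most like AT1G66100 were AT1G71140, another MATE carrier (0.85), ALN, the allantoinase of purine breakdown (0.84), AT1G09390, a GDSL lipase-like protein (0.84), THI2.2 (0.84) and AT2G40980 (0.83). AT1G66100 ranked 19 of 13647 for likeness to THI2.2, and THI2.2 ranked 10 for likeness to AT1G66100.

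Once the replicate numbers' means were taken out, the members' nearest genes were others. AT1G67860 (r = 0.83), AT5G63150 (0.76), AT2G23090 (0.76), the microtubule protein SPR1 (0.74) and AT4G10450 (0.74) were then most like THI2.2. UGT73C1, a glycosyltransferase (0.79), AT5G64130 (0.77), AT3G11930, of the universal stress protein family (0.76), AT2G29995 (0.75) and AT1G14890 (0.75) were most like AT1G66100. The members themselves fell to ranks 2462 and 3069 in each other's order.

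THI2.1, the other thionin that could be tested, had levels that overlapped between all replicate numbers. Its signals were 25.0 to 212, and its medians were 47.8 in number 2, 38.6 in number 3 and 51.3 in number 1. Its log2 differences were 0.27 (SE 0.44) for number 2 minus 1 and -0.18 (SE 0.44) for number 3 minus 1, and limma's F-test between numbers gave an adjusted p of 0.855. For SA minus silwet THI2.1 differed by 0.05 (SE 0.35), and for serial block 3 minus 1 by -0.71 (SE 0.41; limma adjusted p = 0.230). AT2G15010, a further thionin gene, had signals of 0.253 to 10.1 and was too dim to be tested.

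Of 26 genes for other antimicrobial peptides, 11 had a probe set naming them alone, and 4 of these were bright enough to test. In limma's F-test 2 of those 4 differed between the replicate numbers, where 2.93% of all probe sets did. The list was chosen with earlier results of these data known, so this count is only a description. AT4G12500 had signals of 46.6 to 138 in number 2 (median 65.9), 60.9 to 169 in number 3 (median 118) and 20.4 to 71.8 in number 1 (median 34.7). Number 1 overlapped both others, unlike in the members, which were chosen for their difference between numbers. AT4G12500 rose by 1.61 (SE 0.32; limma adjusted p = 0.0111) in number 3 minus 1, while number 2 minus 1 gave 1.06 (SE 0.32; limma adjusted p = 0.110). AZI3, its neighbour on chromosome 4 in the same family, had medians of 68.4, 110.3 and 36.1 in numbers 2, 3 and 1. It rose by 1.54 (SE 0.36; limma adjusted p = 0.0205) in number 3 minus 1, and number 2 minus 1 gave 1.11 (SE 0.36; limma adjusted p = 0.133). Whether their probe sets also bind each other's transcripts was not tested.

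The calls of these 2 genes depended on the arrays used: without serial block 2 or block 3 neither was called in the F-test (limma adjusted p = 0.321 and 0.522 for AT4G12500, 0.361 and 0.580 for AZI3), nor in number 3 minus 1. AZI3 also missed the threshold in the F-test with no filter (limma adjusted p = 0.0542) and with the filter at the 60th percentile (0.0526). The plant defensins gave small differences. PDF2.2 differed by -0.14 and -0.21 in numbers 2 and 3 minus 1 and PDF2.3 by -0.23 and -0.15, and limma called neither. The median over the 4 tested peptide genes was 0.46 for number 2 minus 1 and 0.70 for number 3 minus 1, beside -0.01 and 0.01 over all probe sets tested. AT4G12500 stayed near THI2.2 within the numbers (r = 0.69 after their means were removed, over the same 18 arrays) and not near AT1G66100 (r = -0.02).

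**Figure D3:**
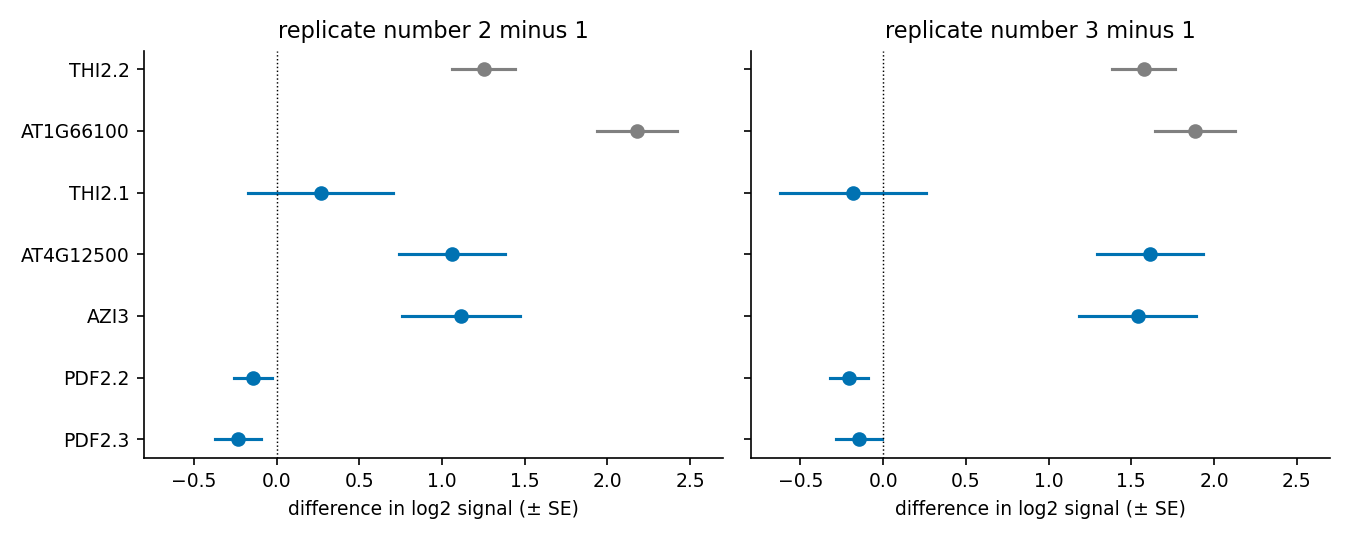
Differences in log2 signal (points, with bars of 1 SE) between replicate number 2 and number 1 on the left and number 3 and number 1 on the right, for the members in grey and for the other tested thionin and peptide genes in blue. AT4G12500 and AZI3 lie at 1.06 and 1.11 on the left and 1.61 and 1.54 on the right, while THI2.1, PDF2.2 and PDF2.3 lie within 0.27 of 0.

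Genes of water deficit ran the other way in the same contrast. The list of them was chosen with earlier results of these data known, so counts from it are only a description. Of 17 such genes 5 had a probe set naming them alone and were tested. Of these 5, 3 fell in number 3 minus 1, where 2.80% of all probe sets were called lower. They were DI21, a drought-induced gene (-1.73, SE 0.30; limma adjusted p = 0.00617), COR15A, a cold-regulated protein of the chloroplast (-0.92, SE 0.15; limma adjusted p = 0.00448), and LTI30, a dehydrin (-0.67, SE 0.18; limma adjusted p = 0.0435). DI21 fell in number 2 minus 1 as well, by 1.80 (SE 0.30; limma adjusted p = 0.00772). Over the 18 arrays its log2 signal had r = -0.77 with THI2.2 and -0.87 with AT1G66100, and r = -0.02 and -0.40 after the means of the numbers were removed. No tested gene of the lists for SA response (5), circadian clock (3) or photosynthesis (3) was called between the numbers. LHCB4.2 came nearest in the photosynthesis list, at 0.24 and 0.41 (SE 0.16 each) in numbers 2 and 3 minus 1 (limma adjusted p = 0.323 in the F-test). The 18 jasmonate genes listed had no probe set with a single gene name.

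Between SA and silwet neither thionin differed by more than its error. THI2.2 had signals of 135 to 720.0 with SA (median 643; mean 509.7 ± 222) and 193 to 781 with silwet (median 465; mean 492 ± 222; SD, n = 9 each). The difference of SA minus silwet in log2 signal was 0.03 (SE 0.34), with a 95% interval of -0.68 to 0.74, or 0.62-fold to 1.67-fold. AT1G66100 had 59.6 to 633 with SA (median 337; mean 315 ± 195) and 72.8 to 511 with silwet (median 332; mean 305 ± 166; SD, n = 9 each). Its difference was -0.01 (SE 0.47), with an interval of -0.998 to 0.978, or 0.501-fold to 1.97-fold. Neither was called (limma adjusted p = 0.9999 for both), and limma called 0% of all probe sets (94 at an unadjusted p under 0.05). Without arrays 20 and 29 the differences were 0.04 (SE 0.38) and -0.05 (SE 0.48), again with 0 calls in limma (2.48% of probe sets at an unadjusted p under 0.05).

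Comparing within a replicate number removes most of the members' spread from the error. SA minus silwet was then 0.26 in number 2, -0.11 in number 3 and -0.06 in number 1 for THI2.2 (SE 0.28 each, 3 arrays against 3), and 0.08, 0.01 and -0.12 for AT1G66100 (SE 0.36 each). All intervals spanned 0, limma called 0% of probe sets in each number (84, 113 and 213 at an unadjusted p under 0.05 in numbers 2, 3 and 1), and the limma test of whether the SA difference varied between numbers gave an adjusted p of 0.9999 for both members. In the 9 pairs of arrays with the same number and block, THI2.2 was higher with SA in 5 and AT1G66100 in 4. The pairs' log2 differences ran from -0.87 to 0.63 for THI2.2 (median 0.07) and from -0.52 to 0.60 for AT1G66100 (median -0.11).

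Within serial blocks the SA difference of the thionins was again smaller than its error, also in block 1, where many probe sets were called once arrays 20 and 29 were left out. For THI2.2 SA minus silwet was 0.19 in block 3, -0.14 in block 2 and 0.04 in block 1 (SE 0.64 each), and for AT1G66100 it was 0.01, -0.17 and 0.13 (SE 0.87 each). Limma called 0% of probe sets in each block (337, 56 and 121 at an unadjusted p under 0.05 in blocks 3, 2 and 1) and 0% in the test of whether the SA difference varied between blocks (91). Without arrays 20 and 29, 2076 probe sets, or 15.2%, were called in block 1. THI2.2 then differed by 0.09 (SE 0.82; limma adjusted p = 0.960) and AT1G66100 by 0.04 (SE 1.05; limma adjusted p = 0.985), from 2 arrays of each treatment. With the replicate number as a term as well, the intervals in block 1 were -0.59 to 0.76 for THI2.2 and -0.70 to 0.78 for AT1G66100, so changes within these bounds are not excluded.

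**Figure D4:**
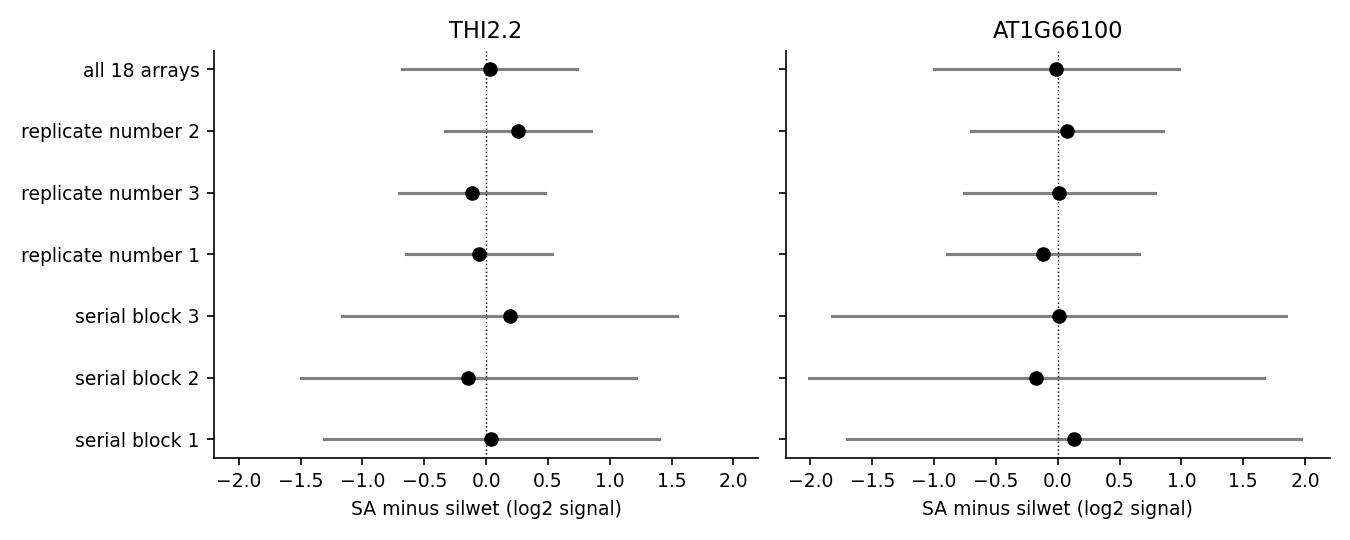
Difference of SA minus silwet in log2 signal (points, with bars of the 95% interval from limma) for THI2.2 and AT1G66100, over all 18 arrays, within each replicate number and within each serial block. Every interval spans 0, and the points lie between -0.17 and 0.26.

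Between serial blocks, AT1G66100 was lower in blocks 3 and 2 than in block 1, by differences that passed the test only for block 2 and only with the replicate number in the fit, and THI2.2 passed no test. AT1G66100 averaged 280.2 ± 147 in block 3, 268 ± 176 in block 2 and 382 ± 207 in block 1 (SD, n = 6 each). Within the same treatment and number, block 2 was lower than block 1 in 6 of 6 comparisons and block 3 in 5 of 6, the exception being silwet of number 3, with 465 in block 3 against 342 in block 1. THI2.2 averaged 544 ± 241, 504 ± 267 and 454.1 ± 151 in blocks 3, 2 and 1. It was higher in block 2 and in block 3 than in block 1 in all 4 comparisons of numbers 2 and 3, and lower in both comparisons of number 1.

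The spread between replicate numbers swamped these differences unless it was taken into the fit. Without a term for the number, block 2 minus 1 was -0.67 (SE 0.58; limma adjusted p = 0.443) and block 3 minus 1 was -0.45 (SE 0.58; limma adjusted p = 0.612) for AT1G66100, and -0.03 and 0.16 (SE 0.43 each) for THI2.2. In that fit limma called 12.7% of probe sets between blocks, 5.99% lower in block 2 minus 1, 7.99% lower in block 3 minus 1 and 0% in block 3 minus 2 (537 at an unadjusted p under 0.05). Without arrays 20 and 29, the arrays of number 2 in block 1, the differences of AT1G66100 were -0.26 and -0.041 in blocks 2 and 3 minus 1. That fit compares blocks that hold unlike numbers. With the number as a term as well they were -0.68 and -0.46 (SE 0.23 each, limma adjusted p = 0.0710 and 0.176). Array weights gave -0.27 and -0.17 in the fit without the number, and block 3 minus 1 was -0.29 there without number 2. Arrays with the same number deviated together across blocks over all tested probe sets, so the numbers pair the arrays here.

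With the replicate number as a block in the fit, AT1G66100 was lower in serial block 2 than in block 1 by a log2 difference of -0.67 (SE 0.19; interval -1.06 to -0.28; 0.629-fold; limma adjusted p = 0.0260), where 7.12% of all probe sets were called lower. Block 3 minus 1 was -0.45 (SE 0.19; limma adjusted p = 0.0927), where 9.61% were called lower, and block 3 minus 2 was 0.22 (SE 0.19; limma adjusted p = 0.932), where 0% were called (784 at an unadjusted p under 0.05). The paired F-test over the 3 blocks gave an adjusted p of 0.0472 for AT1G66100, among 16.6% of probe sets called, and 0.671 for THI2.2. THI2.2 differed by -0.03 and 0.16 (SE 0.19 each; limma adjusted p = 0.933 and 0.548) in blocks 2 and 3 minus 1.

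The call of AT1G66100 in block 2 minus 1 held without most single arrays but not without every one. It was lost without array 30 (limma adjusted p = 0.0721), array 31 (0.0642) or array 33 (0.0668), and also without arrays 20 and 29 (-0.68, SE 0.23; limma adjusted p = 0.0710). Leaving out each array in turn kept it in 15 of 18 cases and kept the F-test's call in 5 of 18. The difference held its sign and lay between -0.78 and -0.57 in those 18 fits. The 3 arrays high in UGT76B1 are all of block 1 and had 511, 118 and 519.6 of AT1G66100 in arrays 20, 28 and 30; without them block 2 minus 1 was -0.70 (limma adjusted p = 0.151).

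Of the 5 tested genes of SA response, 3 were also lower in both contrasts in the fit without the number, where 5.99% and 7.99% of all probe sets were. The list was chosen with earlier results of these data known, so this count is only a description. In blocks 2 and 3 minus 1, the log2 differences were -3.05 and -4.22 for UGT76B1 (SE 0.86 each; limma adjusted p = 0.0288 and 0.00449), -1.35 and -1.46 for the glutaredoxin GRX480 (SE 0.42 each; limma adjusted p = 0.0438 and 0.0268) and -1.71 and -1.62 for the transcription factor WRKY53 (SE 0.37 each; limma adjusted p = 0.00853 and 0.00855). Within block 1, UGT76B1 was high only in arrays 20, 28 and 30. It had signals of 39.3, 77.6 and 41.2 in arrays 19, 21 and 29, so its difference was not shared evenly by the block. The part of these 3 genes in the difference of AT1G66100 was not tested.

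Whether AT1G66100 and THI2.2 differ in their block pattern was asked directly, after the values had been seen. The log2 signal of AT1G66100 minus that of THI2.2 was lower in block 2 than in block 1 by -0.64 on average, in 5 of 6 combinations of treatment and number, and in block 3 by -0.61, in 4 of 6. An exact permutation of the blocks within each combination, over 46656 arrangements, used the spread of the 3 block means and gave p = 0.0576. The difference between the 2 thionins over the 3 blocks thus did not pass 0.05, and the single block differences were not tested.

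**Figure D5:**
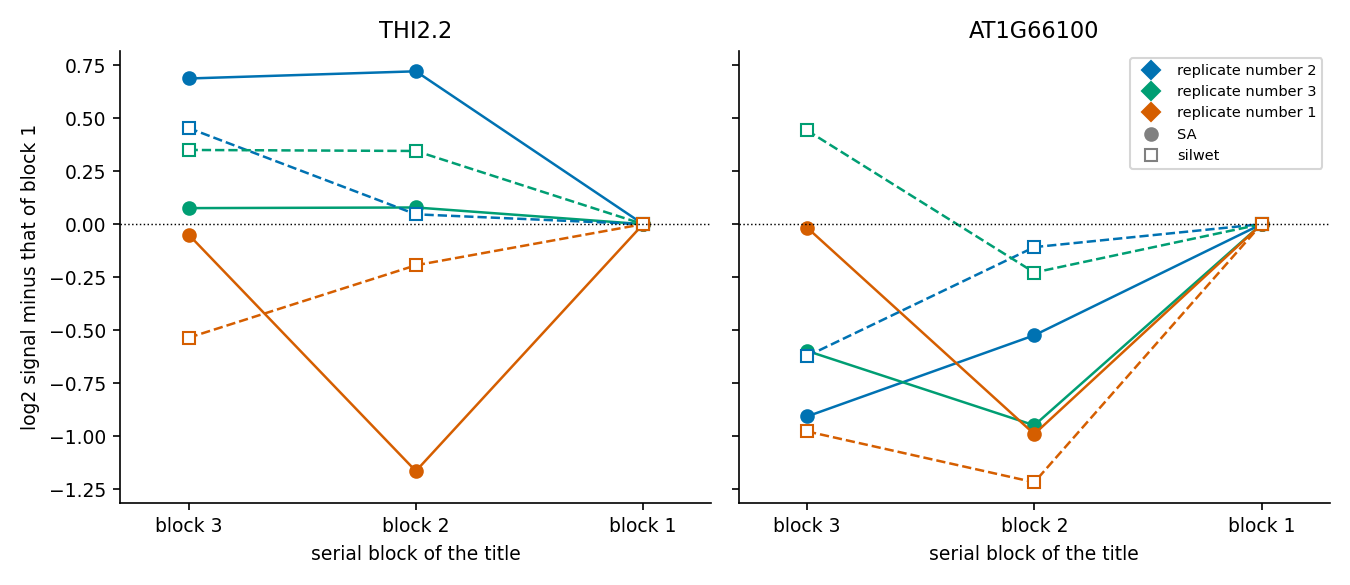
Log2 signal minus that of serial block 1 for THI2.2 and AT1G66100 in blocks 3, 2 and 1, with a line for each combination of treatment (circles and solid lines SA, squares and dashed lines silwet) and replicate number (colour). For AT1G66100 all 6 points of block 2 and 5 of 6 of block 3 lie below 0, while the THI2.2 lines run above 0 in numbers 2 and 3 and below 0 in number 1.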

How the data were processed

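The values are the authors' MAS5 signal intensity for each probe set of the Affymetrix ATH1 array, per the submitters' processing notes. The sources used here do not give the version of MAS5. Each column of the deposited intensity values had a 2% trimmed mean of 100.0, so they were taken as scaled and were not scaled again. Such scaling hides a change in total RNA. The table holds 22810 probe sets, 0 missing values and 0 columns without a sample. Signals of different probe sets are not on one scale, so a gene's place among all probe sets is only a rough guide to its level.

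Controls (64 probe sets) were dropped, and log2 was taken with no pseudocount. Probe sets at or above the 40th percentile of mean log2 signal were tested. Gene names come from the platform annotation, which gave 13513 probe sets 1 gene, with symbols brought up to date from the gene table of TAIR10.1. Limma 3.58.1 in R 4.3.3 (lmFit, eBayes with intensity trend) compared SA with silwet, overall and within replicate numbers and serial blocks, and compared blocks and numbers with treatment as a term. P-values were adjusted by Benjamini-Hochberg over all 13648 probe sets. The code was tested on simulated data.

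The members and 11 gene lists (177 genes, 34 with a probe set of their own, 22 tested) were chosen with earlier results of these data known. Named genes are the members, the 5 genes nearest each by r, up to 4 tested members of a list by their F-test between numbers, every tested thionin and peptide gene, and UGT76B1. EXPA7, EXPA18 and AT2G15010, which were not tested, fall outside that rule and were named after their values were seen.

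Whether numbers pair arrays was checked by correlating deviations from group means over all probe sets. Between serial blocks every same-number correlation was above 0.1 (0.13 to 0.48). Between SA and silwet they were 0.73, 0.03 and 0.48 for numbers 1, 2 and 3. Only number 2, which holds arrays 20 and 29, fell below 0.1, so pairing of the treatments by number was not uniform. The main SA fit has no term for the number, and a fit with it is given as an alternative. Settings were varied by adding a pseudocount of 5.64, by testing every probe set or those above the 60th percentile, by median centring or quantile normalization, by array weights, by a fit with no trend, by leaving out numbers, blocks or arrays, and by taking the replicate number as a block. Leaving out arrays 20 and 29, and combining the replicate block with other choices, were added after seeing the data.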

Additional observations from a re-analysis of the deposited data

Results flagged for a closer look

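In 7 genes (both members, THI2.1 and the 4 tested peptide genes) and 56 groups of 6 or 9 arrays, 3 groups held 1 array whose gap to the nearest other array was a large part of the group's range; chance flags about 1 group in 20. THI2.1 had a signal of 212 in array 29 (SA, number 2), against at most 54.0 in the other 5 arrays of number 2, a gap of 0.707 of the range of log2 signal. Array 29 is the SA array of block 1 in which UGT76B1 was low, at 41.2. THI2.1 had 97.6 in array 34 (SA, number 1), against at most 38.3 in the other 5 arrays of serial block 3, a gap of 0.687. PDF2.3 had 383 in array 32 (SA, number 2), against at least 498 in the other 5 arrays of number 2, a gap of 0.790. No group of THI2.2 or AT1G66100 was flagged.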

How the results depend on the processing

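The differences of both members in numbers 2 and 3 minus 1 kept their sign under all 13 alternatives. They were 1.04 to 1.57 and 1.36 to 1.81 for THI2.2, and 1.87 to 2.40 and 1.78 to 2.04 for AT1G66100. Since the members were chosen from this contrast, these ranges are a description and lend it no support. The count of probe sets called between numbers (400) was 209 with the 60th percentile filter, 609 with median centring, 1417 with array weights, 749 without arrays 20, 28 and 30, 995 with serial block as a term, and 0 to 799 leaving out a block.

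SA differences of the members were not called under any alternative, and many changed sign. AT1G66100 overall (-0.01) was 0.027 with median centring, 0.13 with array weights, 0.12 without arrays 20, 28 and 30, and -0.081 to 0.071 leaving out a number or block; THI2.2 (0.03) was -0.083 to 0.12 leaving out a number or block. With the replicate number as a block, the intervals were -0.30 to 0.36 for THI2.2 and -0.43 to 0.41 for AT1G66100. Their SEs were 0.16 and 0.20, against 0.34 and 0.47 without the number. Limma gave 0 calls (131 at an unadjusted p under 0.05), and no other SA call changed. Within block 1, array weights gave -0.43 and -0.44 for THI2.2 and AT1G66100, and for AT1G66100 leaving out a number gave -0.10 to 0.46 and leaving out arrays 20, 28 and 30 gave 1.39, from 1 SA and 2 silwet arrays. Leaving out a number gave -0.53 to 0.22 for THI2.2 in block 2, and -0.0082 to 0.39 and -0.21 to 0.23 for THI2.2 and AT1G66100 in block 3. Within number 1, median centring gave 0.021 for THI2.2, and leaving out a block gave -0.38 to 0.35 for THI2.2 and -0.40 to 0.078 for AT1G66100. For AT1G66100, number 2 gave -0.042 without arrays 20 and 29 and -0.042 to 0.17 leaving out a block. Number 3 gave -0.0090 with quantile normalization, -0.13 with array weights, -0.24 without arrays 20, 28 and 30, and -0.28 to 0.24 leaving out a block.

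The 0 probe sets called for SA in block 1 became 2076 without arrays 20 and 29, and 0 to 1134 leaving out a number, with 1134 without number 2, which holds both arrays. In block 2 the count was 1 with array weights, 1 without arrays 20, 28 and 30, and 0 to 1 leaving out a number. For the SA difference between blocks it was 1 with array weights, 1 without arrays 20, 28 and 30, 321 without arrays 20 and 29, and 0 to 77 leaving out a number. In number 1 it was 1 with no filter.

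Between blocks the count (1739) was 152 without arrays 20, 28 and 30, 991 without arrays 20 and 29, and 123 to 1690 leaving out a number. THI2.2 in block 2 minus 1 (-0.03) was 0.15 with array weights, 0.0034 without arrays 20, 28 and 30 and -0.23 to 0.30 leaving out a number, and block 3 minus 1 was -0.040 to 0.39. The replicate block brought the F-test's adjusted p for AT1G66100 to 0.0472; with the block it was 0.0618 with quantile normalization, 0.0631 with no filter, 0.0530 with no trend, 0.179 with array weights, 0.245 without arrays 20, 28 and 30, 0.138 without arrays 20 and 29, and 0.0215 to 0.132 leaving out an array. Block 2 minus 1 for AT1G66100 was -0.49 with array weights (adjusted p = 0.114), -0.70 without arrays 20, 28 and 30, -0.68 without arrays 20 and 29, and -0.78 to -0.57 leaving out an array; it was called in 21 of 27 alternatives (adjusted p = 0.0121 to 0.151). Block 3 minus 1 was -0.56 to -0.34 leaving out an array, and called only without array 21 (adjusted p = 0.0392). The causes were not tested; fits without a number, block or array hold fewer arrays. Low signals limit the dim peptide genes and some genes named as near the members by r, not the members. Among the latter genes AT2G24960 and UGT73C1 had mean signals of 20.8 and 24.3, close to the limit for testing.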
